A study of Mus musculus with 13 samples.

Results

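Homologous recombination, the Fanconi pathway and the DNA damage checkpoints were followed through 47 gene symbols, from break sensors and checkpoint kinases to strand-exchange mediators and nucleases. Members were the probe sets whose only gene symbol in the platform annotation was one of these symbols. H2afx was found there under its newer name, H2ax. In all, 44 of the 47 genes were measured, of 17097 genes on the array, by 82 of 45037 probe sets (array controls left out). Rnf168, Rbbp8 and Xrcc2 were not analysed here. Of the 44 genes, 24 had several probe sets and 20 had 1, and every probe set was read.

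RNA came from skin tumours labelled SCC (squamous cell carcinoma), 7 from G9a cKO (conditional knockout) mice and 6 from G9a WT mice, with 1 array each. G9a is a histone H3 lysine 9 methyltransferase encoded by Ehmt2. In both groups DMBA, a mutagen, and TPA, which drives the outgrowth of mutated cells, had been painted on the back weekly for 6 weeks from 8 weeks of age, and TPA was given further for up to 20 weeks. The labels do not say which Cre line made the knockout conditional. Whether each tumour came from its own mouse is not given, so p-values concern the spread between these arrays as deposited. The arrays read bulk tumour RNA, in which fewer cells of a type and less RNA per cell cannot be told apart.

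Values are log2 expression per probe set, as deposited after RMA, and the probe sets of a gene are numbered in the order of their identifiers. Array medians were 5.12 to 5.14 in cKO and 5.09 to 5.14 in WT. The keratinocyte keratin genes Krt5 and Krt14 were bright in both groups, at 12.11 to 12.78 in cKO and 12.27 to 12.67 in WT tumours. Ehmt2 probe set 2 read 5.87 to 6.12 in cKO and 8.03 to 8.61 in WT tumours (exact permutation p = 0.000583, two-sided, n = 7 and 6). Ehmt2 probe set 1 read 7.36 to 7.49 in cKO and 7.03 to 7.53 in WT tumours, and which of them lies in the deleted part is not given. Group differences (cKO minus WT) were tested with limma over all probe sets, with a call at an adjusted p under 0.05. Consecutive arrays of a group deviated from the group mean in opposite ways, with correlations of -0.95 to -0.88 in 6 pairs. The array left over, cKO replicate 1, lay close to its group mean (SD of the deviation 0.06, against 0.18 to 0.20 on the other cKO arrays and 0.18 to 0.22 on WT arrays). Each probe set was therefore also fitted with a term for each pair, and rose or fell is written only where both fits called it. The fit without the term takes the arrays as independent, which mirrored pairs are not, so its p-values can be too small. It leaves 11 residual degrees of freedom, against 6 with the term. A spread between pairs can hardly be read from these values by either fit. SEs are from the fit without the term. With the term they were larger, as 0.0425 against 0.031 for Mre11a probe set 2 and 0.2655 against 0.2084 for Rad51b probe set 1. Nonspecific control probe sets had an upper quartile of 4.31, taken as the background level, and differed between the groups by -0.31 to 0.08. These differences tended to fall with the GC number in the control's name, from 0.08 at 4 to -0.31 at 24. Control levels tended to rise with that number, with group means from 3.01 to 6.32. A probe set above 4.31 can thus still lie within the range of the controls.

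Broken DNA ends are bound by the MRE11-RAD50-NBN complex, which activates the kinase ATM, whereas single-stranded DNA at stalled forks activates ATR. Both kinases halt the cell cycle through CHK1 and CHK2 and direct repair. In homologous recombination, ends are cut back to single strands, BRCA1, PALB2 and BRCA2 load a recombinase onto them, and the intact sister chromatid is copied. The Fanconi proteins unhook crosslinks between DNA strands and feed them into the same route. In dividing keratinocytes, as in other cycling cells, many of these genes are transcribed around S phase.

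Promoter windows are shown for the genes with a window that had the largest differences called in both fits, a pair in each direction, so that the sequence can be set beside them. RefSeq windows (GRCm38.p6, 250 bases before to 50 after the start of the gene) were found for 35 of the 44 genes, 39 windows in all. Capitals mark any match, on either strand, to a CCAAT box (CCAAT), a GC box (GGGCGG), an E2F motif (TTTNNCGC) or a cell cycle homology region, CHR (TTTGAA). Rad51b (chr12:79297032-79297331, + strand, the upstream of its 2 windows) and Brca1 (chr11:101551906-101552205, - strand) rose in cKO tumours. Rad52 (chr6:119902448-119902747, + strand) and Chek1 (chr9:36726609-36726908, - strand) fell.
Rad51b: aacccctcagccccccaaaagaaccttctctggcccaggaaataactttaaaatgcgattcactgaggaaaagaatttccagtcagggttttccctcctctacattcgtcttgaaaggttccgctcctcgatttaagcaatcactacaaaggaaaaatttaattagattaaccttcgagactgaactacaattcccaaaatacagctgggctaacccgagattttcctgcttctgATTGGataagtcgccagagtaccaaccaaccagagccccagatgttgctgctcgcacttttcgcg
Brca1: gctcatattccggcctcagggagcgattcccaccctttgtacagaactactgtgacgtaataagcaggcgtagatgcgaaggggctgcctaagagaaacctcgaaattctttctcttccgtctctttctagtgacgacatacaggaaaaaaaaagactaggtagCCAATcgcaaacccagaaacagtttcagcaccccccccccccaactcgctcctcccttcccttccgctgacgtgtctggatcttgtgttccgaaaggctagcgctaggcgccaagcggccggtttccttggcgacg
Rad52: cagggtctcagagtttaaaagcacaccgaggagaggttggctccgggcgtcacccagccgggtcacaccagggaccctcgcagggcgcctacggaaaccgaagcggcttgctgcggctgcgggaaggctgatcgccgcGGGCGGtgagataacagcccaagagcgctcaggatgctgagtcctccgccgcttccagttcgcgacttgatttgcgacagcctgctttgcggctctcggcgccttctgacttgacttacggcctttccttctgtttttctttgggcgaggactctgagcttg
Chek1: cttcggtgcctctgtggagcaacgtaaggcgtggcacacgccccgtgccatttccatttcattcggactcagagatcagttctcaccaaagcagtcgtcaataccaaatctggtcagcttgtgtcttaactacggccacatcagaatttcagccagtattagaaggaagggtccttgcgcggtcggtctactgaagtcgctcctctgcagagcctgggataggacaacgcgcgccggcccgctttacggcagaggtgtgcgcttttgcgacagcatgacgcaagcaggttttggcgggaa
The Rad51b and Brca1 windows each held 1 CCAAT box, the Rad52 window held 1 GC box, and the Chek1 window matched none of the 4 strings. Only exact matches count, so a site that differs from a string by a base is missed, as TTTGGCGG near the end of the Chek1 window. No matches overlapped in these windows. Of the genes called in both fits, 6 that rose (Mre11a, Atrip, Brca1, Palb2, Rad51b and Fancm) and 5 that fell (Rad17, Topbp1, Chek1, Rad52 and Rad54l) had a window. A CCAAT box was in the windows of all 6 that rose and 1 that fell, a GC box in 4 and 3, a CHR match in 1 and 0, and an E2F match in 0 and 1. With so few genes, chosen by their calls, this is a description of these windows. Over the 39 member windows 53.8% held a CCAAT box, against 37.4% of 32851 windows of all genes and 38.2% of the 21263 windows of protein-coding genes. The E2F motif was in 23.1% of member windows, against 5.17% of all windows and 6.24% of protein-coding ones. GC boxes were in 61.5% of member windows, against 35.7% of all and 46.2% of protein-coding ones, and CHR matches in 12.8%, against 17.9% and 16%. Of the genes with an E2F match, only Topbp1 had changed in both fits.

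The pathway genes moved in both directions and by modest amounts. Of 82 member probe sets, 20 were called higher and 21 lower in cKO tumours (50%), against 47.9% called of all probe sets, 24.4% higher and 23.4% lower. In both fits, 10 rose and 10 fell (24.4%), against 27% of all probe sets, 13.9% higher and 13.1% lower. The groups did not overlap on 16 member probe sets, 8 higher and 8 lower (19.5%), against 24.2% of all. The shares called thus lay close to those of the whole array. With each gene read by its brightest probe set, 12 of 44 genes were called higher and 12 lower (54.5%), against 46.5% of all genes, 26.1% higher and 20.4% lower. In both fits 7 genes rose and 6 fell (29.5%), against 26.2%, 15.2% higher and 11% lower, and after quantile normalization 8 were called higher and 4 lower in both fits, against 16% and 8.48% of all genes. Of the 44 genes, 10 showed no overlap between groups (22.7%), against 23% of all. No member differed by more than 2-fold, as 714 of all probe sets did. The median size of the difference, whatever its sign, was 0.15 both for members and for all probe sets. Over all their probe sets, 9 genes had one that rose (Mre11a, Rad50, Atrip, Exo1, Brca1, Palb2, Rad51b, Rad51d and Fancm) and 8 had one that fell (Nbn, Rad9a, Rad17, Topbp1, Chek1, Rad52, Rad54l and Fancd2). The other 27 had none called in both fits. For Rad17 the call lay below the background level in both groups, and for Exo1 and Rad50 it was below that level in WT tumours.

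**Figure D1:**
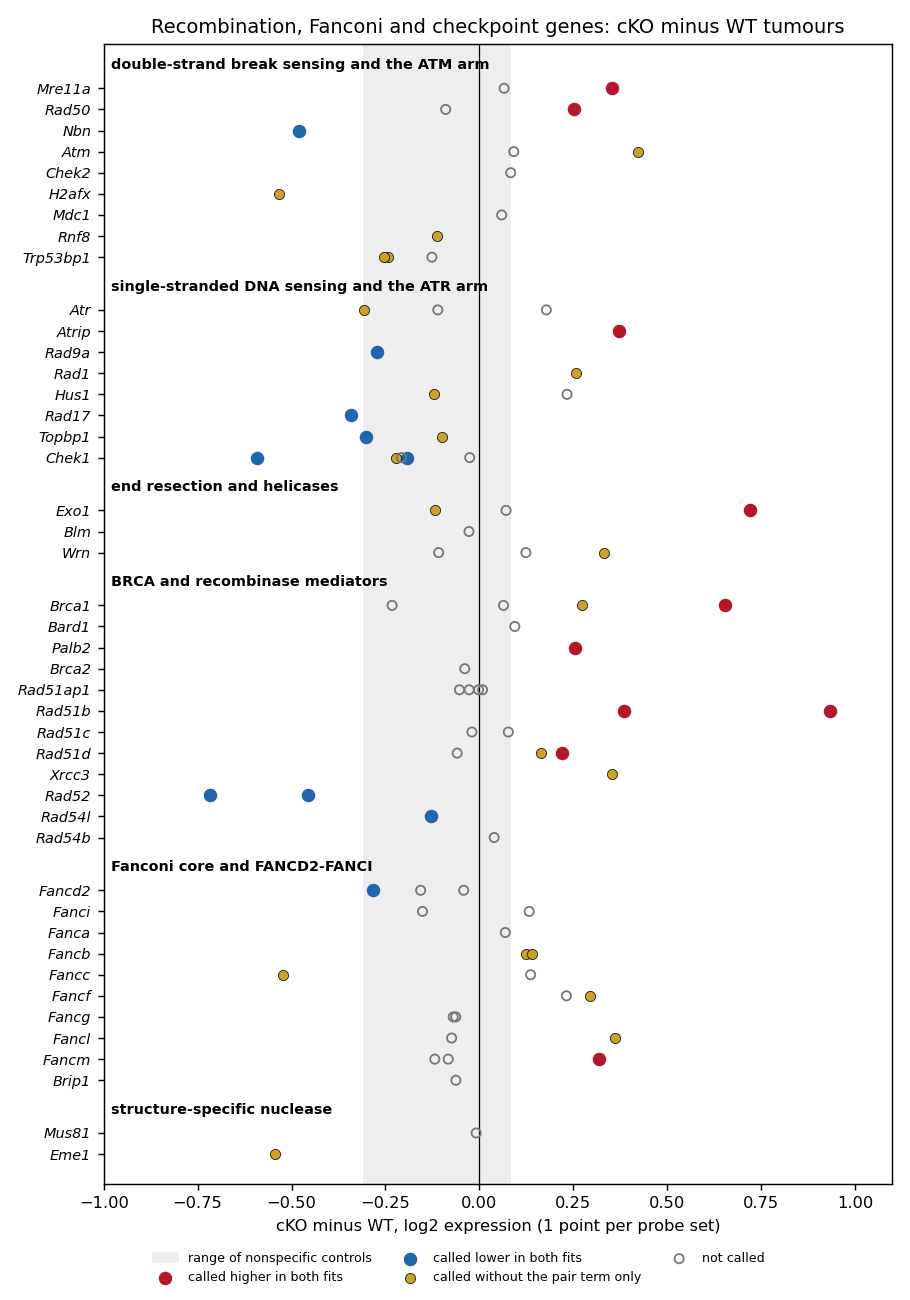
Differences (cKO minus WT, log2 expression, horizontal axis) of the 82 member probe sets, 1 point each, with genes grouped by role down the page. Red and blue points were called higher and lower in both fits, yellow points only without the pair term, open points not at all, and the grey band spans the nonspecific controls from -0.31 to 0.08. The points reach from -0.72 (Rad52) to 0.93 (Rad51b).

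Among the sensors of broken ends, the subunits of the MRE11-RAD50-NBN complex differed in direction. Mre11a, the nuclease subunit, read 6.46 to 6.57 in cKO tumours on probe set 2, median 6.52, against 6.06 to 6.21 in WT tumours, median 6.17. All 7 cKO tumours lay above all 6 WT tumours, in narrow ranges, and Mre11a rose by 0.35 ± 0.03 (SE; limma adjusted p = 3.19e-06, 0.00202 with the pair term). Its probe set 1, at 5.84 in cKO and 5.78 in WT tumours, differed by 0.07 (adjusted p = 0.366). Nbn, which brings ATM to the complex, read 5.50 to 5.89 in cKO tumours, median 5.67, against 5.97 to 6.48 in WT tumours, median 6.12. The groups did not overlap, WT replicate 8 (6.48) lay highest, and Nbn fell by 0.48 ± 0.08 (SE; adjusted p = 0.000352, 0.0129 with the pair term). For Rad50, the ATPase that bridges the ends, the bright probe set 1 averaged 7.08 in cKO and 7.16 in WT tumours and was not called. The dim Rad50 probe set 2 rose, with 4.38 in cKO and 4.13 in WT tumours. Since the WT mean lay below the background level it is given as at least 1.05-fold higher, with WT values under 4.31 replaced by 4.31. Such a bound allows for the background level only, and not for the spread between arrays.

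Downstream in the ATM arm, no gene passed both fits. The kinase gene Atm read 7.01 to 7.86 in cKO and 6.71 to 7.46 in WT tumours on probe set 1, a difference of 0.42 ± 0.16 (SE) with overlapping groups (adjusted p = 0.0439, 0.158 with the pair term), and its dimmer probe set 2 differed by 0.09. H2afx encodes the histone variant phosphorylated around breaks. It had 7.14 to 8.06 in cKO and 7.77 to 8.26 in WT tumours, a difference of -0.53 ± 0.15 (SE; adjusted p = 0.0101, 0.0688 with the pair term). Trp53bp1, which shields ends from resection, was the brightest member, at 9.50 ± 0.13 in cKO and 9.63 ± 0.19 in WT tumours (SD, n = 7 and 6), and all 3 of its probe sets had lower means in cKO tumours, by 0.13 to 0.25, the dimmer 2 called without the pair term only. The ubiquitin ligase gene Rnf8 differed by -0.11 without overlap, and by 0.002 after quantile normalization. Chek2 (0.08) and the scaffold gene Mdc1 (0.06) were not called. Over the arm, 3 probe sets were called higher and 5 lower of 14 (57.1%, against 47.9% of all probe sets). In both fits 2 rose and 1 fell (21.4%, against 27%). After quantile normalization 3 were called in each direction, against 24.5% higher and 22% lower of all.

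In the ATR arm, 2 of 16 probe sets were called higher and 9 lower, against 24.4% and 23.4% of all probe sets. Chek1 supplied 3 of the 9, and 6 of the 16 lay below the background level in both groups. Read by the brightest probe set, 2 of the 8 genes were called higher and 5 lower (87.5%, against 46.5% of all genes). In both fits 1 gene rose and 3 were called lower (50%, against 26.2%). Over the probe sets, in both fits 1 rose and 5 fell (37.5%, against 27% of all). The median difference of the 16 was -0.16, against 0.0004 over all probe sets. After quantile normalization the median was -0.16, with 3 called higher and 10 lower, against 24.5% and 22% of all probe sets. Chek1, the kinase that carries the ATR signal, was read by 5 probe sets, all with lower means in cKO tumours. On probe set 4 Chek1 read 4.33 to 4.69 in cKO tumours, median 4.44, against 4.72 to 5.49 in WT tumours, median 5.10. The groups did not overlap there, the WT tumours were the more spread, and Chek1 fell by 0.59 ± 0.11 (SE; adjusted p = 0.000974, 0.0201 with the pair term). Its brightest probe set, number 2, overlapped between groups, at 5.07 to 5.22 in cKO and 5.11 to 5.73 in WT tumours (-0.22, adjusted p = 0.0454, 0.158 with the pair term). Probe set 3 was also called lower, with both groups below the background level.

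The clamp that is loaded where ATR acts was mixed as well. Rad17, the clamp loader, read 3.79 to 3.94 in cKO tumours, median 3.86, against 4.13 to 4.27 in WT tumours, median 4.21. It was called lower without overlap (adjusted p = 7.17e-06, 0.00315 with the pair term), but both groups lay below the background level, so no size is given. Of the clamp subunits, Rad9a fell by 0.27, with 6.34 to 6.55 in cKO and 6.69 to 6.83 in WT tumours, Rad1, whose WT mean lay below the background level, was higher by at least 1.06-fold in cKO (adjusted p = 0.0118, and 0.0754 with the pair term), and the Hus1 probe sets differed by 0.23 (adjusted p = 0.0637) and -0.12 (adjusted p = 0.0415, 0.177 with the pair term). Topbp1, the activator of ATR, fell by 0.30, to 7.62 ± 0.10 in cKO tumours against 7.92 ± 0.14 in WT tumours (SD, n = 7 and 6). After quantile normalization with the pair term it was not called (-0.16, adjusted p = 0.183), and its probe set 2, below the background level, differed by -0.10. Atrip, the partner that ATR needs to bind coated DNA, went the other way. It read 6.20 to 6.29 in cKO tumours, median 6.24, against 5.64 to 6.11 in WT tumours, median 5.87. The cKO tumours lay within 0.1 of one another, above every WT tumour, and Atrip rose by 0.37 ± 0.07 (SE; adjusted p = 0.000681, 0.0202 with the pair term). For Atr itself, the 3 probe sets differed by 0.18, -0.11 and -0.31, and none passed both fits.

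Of the resection and helicase genes, 1 probe set of Exo1 rose. Exo1 encodes an exonuclease that lengthens the resected strand. On probe set 2 it read 4.79 to 5.14 in cKO tumours, median 5.00, against 4.16 to 4.47 in WT tumours, median 4.28. All cKO tumours lay above all WT tumours. The difference was 0.72 ± 0.06 (SE; adjusted p = 2.86e-06, 0.0014 with the pair term), and since the WT mean lay below the background level, Exo1 is given as at least 1.58-fold higher, with the same replacement of low WT values. The brighter probe set 1 read 5.47 to 5.65 in cKO tumours, median 5.56, inside the WT range of 5.18 to 5.82, median 5.51 (0.07, adjusted p = 0.588). Probe set 3, below background in both groups, read 3.52 to 3.65 in cKO tumours, median 3.57, against 3.56 to 3.83 in WT tumours, median 3.69, and was called lower without the pair term only (adjusted p = 0.033, 0.159 with it). Exo1 was thus the gene whose probe sets were called in opposite directions. Blm, the helicase gene mutated in Bloom syndrome, differed by -0.03 ± 0.08 (SE), and the 3 probe sets of Wrn, another helicase of the same family, by -0.11 to 0.33, with none passing both fits.

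Among the BRCA genes and the mediators of strand exchange, Brca1 and Rad51b rose and Rad52 fell. Brca1 is the ubiquitin ligase that favours resection and recruits PALB2. On probe set 2 it read 6.86 to 7.41 in cKO tumours, median 7.13, against 6.25 to 6.69 in WT tumours, median 6.56. The lowest cKO tumour was above the highest WT tumour, and this probe set rose by 0.65 ± 0.10 (SE), or 1.57-fold (adjusted p = 0.000219, 0.01 with the pair term). Brca1 probe set 4 was higher by 0.27 in cKO tumours without the pair term only (adjusted p = 0.0399, 0.154 with it), while probe sets 1 and 3 differed by -0.23 and 0.06 and were not called. Palb2, which joins BRCA1 to BRCA2, rose by 0.25, to 5.15 ± 0.08 in cKO tumours against 4.89 ± 0.09 in WT tumours (SD, n = 7 and 6). Bard1, the partner of BRCA1 (0.09 ± 0.08, SE), and Brca2, which loads the recombinase (-0.04 ± 0.09, SE), were not called.

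Rad51b, a paralog of the recombinase that stabilises its filament, had the largest difference of all members. On probe set 1 it read 4.80 to 6.13 in cKO tumours, median 5.47, against 4.42 to 4.61 in WT tumours, median 4.49. The cKO tumours were spread widely, with replicates 2 (6.13) and 9 (6.11) high and replicates 3 (4.80) and 8 (4.85) close to the WT tumours. Even so the groups did not overlap, and Rad51b rose by 0.93 ± 0.21 (SE), or 1.91-fold (adjusted p = 0.00268, 0.036 with the pair term). Rad51b probe set 2 was called higher too, with 3.80 to 3.98 in cKO and 3.42 to 3.62 in WT tumours, all below the background level. Of the other paralogs, Rad51d rose by 0.22 on its brightest probe set, while its other 2 probe sets differed by 0.16 and -0.06. Rad51c differed by -0.02 and 0.08 with no call. Xrcc3 read 6.96 to 7.11 in cKO and 6.44 to 6.94 in WT tumours (0.35, adjusted p = 0.00489, 0.0503 with the pair term).

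Rad52, which anneals single strands, fell on both of its probe sets. On probe set 2 it read 6.15 to 6.66 in cKO tumours, median 6.37, against 7.02 to 7.23 in WT tumours, median 7.10. No tumours overlapped, and this probe set fell by 0.72 ± 0.09 (SE; adjusted p = 4.57e-05, 0.00454 with the pair term), the largest decrease of any member. On the brighter probe set 1 Rad52 read 7.93 to 8.46 in cKO tumours, median 8.26, against 8.38 to 8.98 in WT tumours, median 8.69. It fell by 0.46 ± 0.10 (SE; adjusted p = 0.00261, 0.0348 with the pair term), with cKO replicates 6 and 9 inside the WT range. After quantile normalization with the pair term this probe set was not called (-0.30, adjusted p = 0.132). The translocase gene Rad54l fell by 0.13, and its relative Rad54b differed by 0.04. All 4 probe sets of Rad51ap1, a stimulator of strand exchange, had closely similar means in the groups, with differences of -0.05 to 0.01 and SEs of 0.04 to 0.16. Over these 12 measured genes, 8 probe sets were called higher and 3 lower of 23 (47.8%, against 47.9% of all probe sets). Of all probe sets, 24.4% were called higher and 23.4% lower. In both fits 5 rose and 3 fell (34.8%, against 27%), or 6 and 2 after quantile normalization (13.6% and 11.5% of all).

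Genes of the Fanconi pathway showed the fewest called probe sets of the larger groups. Of 20 probe sets, 5 were called higher and 2 lower (35%, against 47.9% of all probe sets, 24.4% higher and 23.4% lower). In both fits 1 rose and 1 fell (10%, against 27%). After quantile normalization 4 were called higher and 3 lower, against 24.5% and 22% of all. Fancm, the translocase that finds stalled forks, read 7.02 to 7.33 in cKO tumours on probe set 1, median 7.20, against 6.66 to 6.95 in WT tumours, median 6.92. The groups were apart by less than 0.1, and Fancm rose by 0.32 ± 0.06 (SE; adjusted p = 0.00121, 0.0227 with the pair term). Its other 2 probe sets, both dimmer, differed by -0.12 and -0.08. Fancd2, a subunit of the clamp that is ubiquitinated at crosslinks, fell by 0.28 on probe set 3, to 4.36 ± 0.07 in cKO tumours against 4.64 ± 0.06 in WT tumours (SD, n = 7 and 6), while its other 2 probe sets differed by -0.04 and -0.16, and its partner Fanci, with differences of 0.13 and -0.15, was not called on either probe set. Of the core complex genes, none passed both fits. Fancl, the ubiquitin ligase of the core, was 0.36 higher in cKO tumours on its bright probe set (adjusted p = 0.034, and 0.143 with the pair term), against -0.07 on the dim one, and Fancc differed by -0.52 on 1 probe set (adjusted p = 0.0119, 0.0721 with the pair term) and 0.14 on the other. Fancb was called higher without the pair term on 2 probe sets below the background level, and Fancf on 1 such probe set, while its brighter one differed by 0.23 (adjusted p = 0.068). Fanca (0.07), the 2 probe sets of Fancg (-0.06 and -0.07) and the helicase gene Brip1 (-0.06) were not called.

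The nuclease partners Mus81 and Eme1, which cut joined DNA molecules apart, both had overlapping groups. Mus81 read 6.29 to 7.12 in cKO tumours, median 6.79, against 6.60 to 7.04 in WT tumours, median 6.72, and the cKO range enclosed the WT range (-0.01 ± 0.12, SE; adjusted p = 0.961). Eme1 read 6.81 to 7.55 in cKO and 7.32 to 8.12 in WT tumours, a difference of -0.54 ± 0.16 (SE; adjusted p = 0.0155, 0.0872 with the pair term).

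**Figure D2:**
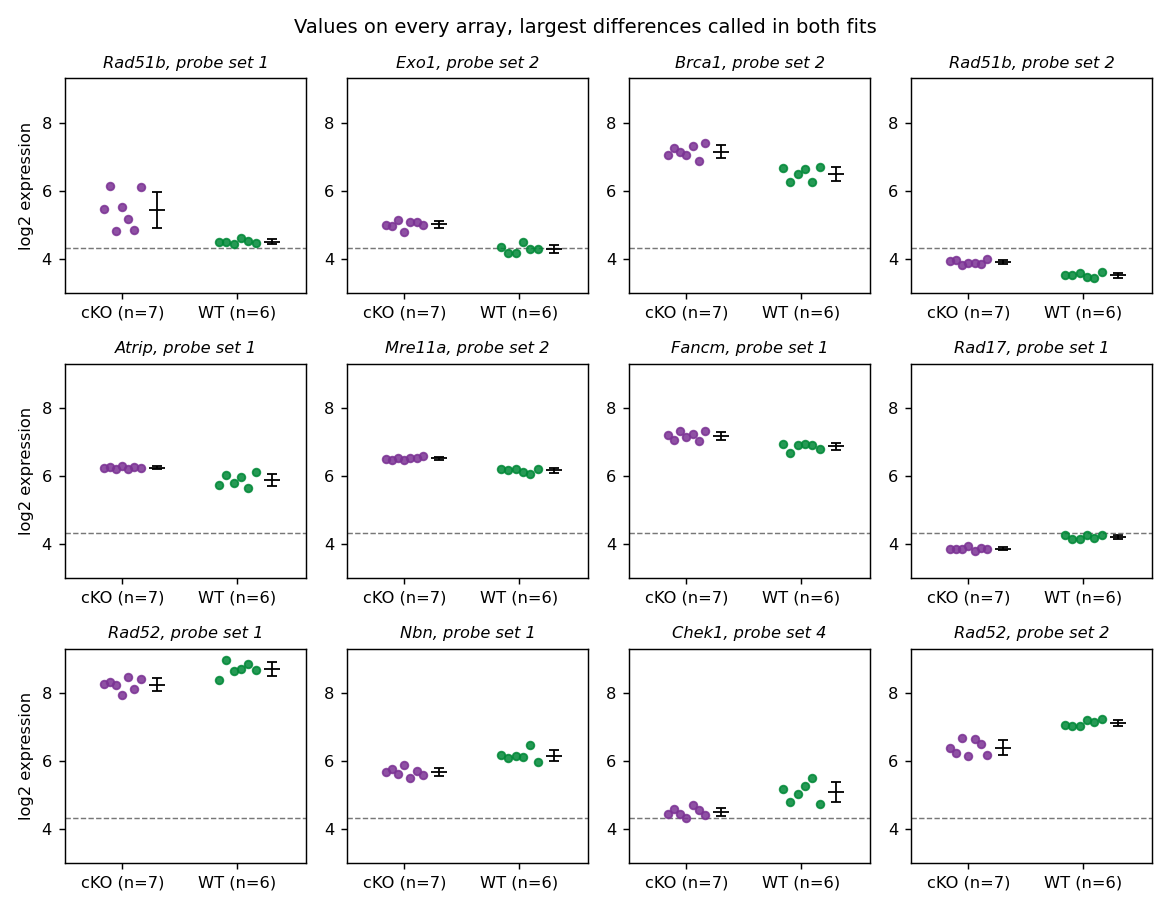
Log2 expression on every array for the 12 member probe sets with the largest differences called in both fits, ordered from the largest increase to the largest decrease, with cKO tumours (purple, n = 7) left of WT tumours (green, n = 6). Points are arrays, bars are mean ± SD, and the dashed line is the background level of 4.31. The groups overlap only for Rad52 probe set 1, and Rad51b probe set 1 is the most spread in cKO tumours (SD 0.54, against 0.07 in WT).

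Probe sets of a gene often disagreed. Of the 24 genes with several, 11 had differences of the same sign on all of them, and 3 (Chek1, Rad51b and Rad52) had more than 1 called in both fits. Of all members, 62 probe sets had both group means above the background level, 4 had 1 below it and 16 had both below it. The 12 largest of the 20 differences called in both fits exceeded 0.31 in size, the largest difference of a nonspecific control. The remaining 8, of Rad50, Rad9a, Topbp1, Chek1 probe set 3, Palb2, Rad51d, Rad54l and Fancd2, did not. That control was lower in cKO tumours, and the largest increase of a control was 0.08. Of the 20, Rad17, Rad51b probe set 2 and Chek1 probe set 3 had both groups below the background level.

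Bright probe sets as a whole were lower in cKO tumours, and the members' differences were read against this. Over all probe sets the median difference was 0.02 to 0.04 in the 6 dimmest of 10 equal bins of level, and -0.06, -0.12 and -0.13 in the 3 brightest. After quantile normalization it lay between -0.01 and 0.03 in every bin. In that setting 19 of 82 member probe sets were called higher and 20 lower, against 24.5% and 22% of all probe sets. Of the 41 calls 34 were made there too, and 1, Rnf8, turned its sign. In both fits 11 rose and 8 fell after quantile normalization, against 13.6% and 11.5% of all probe sets, and 18 of these were among the 20 called in both fits before it. Topbp1 and Rad52 probe set 1 were the 2 that were lost.

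**Figure D3:**
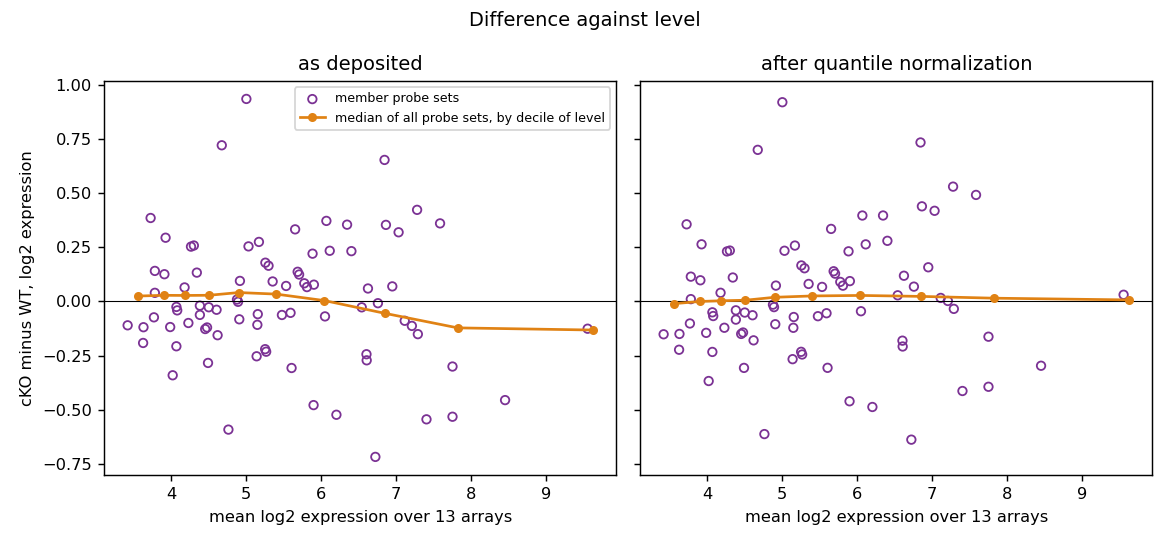
Difference (cKO minus WT, log2 expression) of the 82 member probe sets (circles) against their mean level over 13 arrays, as deposited on the left and after quantile normalization on the right. The orange line is the median of all probe sets in 10 equal bins of level, which reaches -0.13 in the brightest bin as deposited and lies between -0.01 and 0.03 after quantile normalization, while members scatter to both sides of it.

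Another 51 measured genes of these pathways were also mixed. Each was read by its brightest probe set. Of these, 8 were called higher and 8 lower (31.4%, against 46.5% of all genes), or 11 and 5 after quantile normalization (28.3% and 17% of all genes). With a gene's probe sets averaged instead, 4 were called higher and 13 lower, so the split depends on how genes are read. In both fits 4 rose and 4 fell (15.7%, against 26.2%), with a median difference of -0.03, against 0.02 over all genes. Slx4, the scaffold on which crosslink nucleases assemble, rose by 0.74, to 6.06 ± 0.06 in cKO tumours against 5.32 ± 0.26 in WT tumours (SD, n = 7 and 6). Rmi1, a partner of the Bloom helicase, rose by 0.31. Paxip1, an adaptor of the break response, fell by 0.69, to 6.26 ± 0.18 in cKO tumours against 6.94 ± 0.17 in WT tumours. The crosslink-bypass polymerase gene Rev3l fell by 0.48, and Eme2, the alternative partner of MUS81, by 0.24, while the Fanconi core gene Fance was called lower with both groups below the background level. Eme2 was not called after quantile normalization with the pair term (adjusted p = 0.201).

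Markers of dividing cells and of other cell types were read in the same tumours, each gene by its brightest probe set. Of all genes so read, 26.1% were called higher and 20.4% lower, and 15.2% rose and 11% fell in both fits. After quantile normalization these shares were 28.3% and 17%, and 16% and 8.48% in both fits. Of 36 DNA replication genes, 2 were called higher and 12 lower (4 and 6 after quantile normalization), and 1 rose and 6 fell in both fits (1 and 2 after quantile normalization), with array means of 7.04 to 7.32 in cKO and 7.05 to 7.50 in WT tumours. Of 31 mitosis genes, 5 were called higher and 5 lower (5 and 2 after quantile normalization), and 3 rose and none fell in both fits, with array means of 7.01 to 7.56 in cKO and 6.99 to 7.63 in WT tumours. Mki67, the proliferation marker, read 7.75 to 8.83 in cKO and 8.16 to 9.11 in WT tumours (-0.30, adjusted p = 0.196). Fibroblast markers rose in 7 of 11 genes and fell in none in both fits, with array means of 6.48 to 6.95 in cKO and 5.59 to 6.15 in WT tumours. Endothelial markers rose in 6 of 10 and fell in none, with array means of 5.49 to 5.91 in cKO and 4.31 to 5.40 in WT tumours, and leukocyte markers rose in 4 of 11 (3 after quantile normalization) and 1 was called lower without the pair term only (Cd14, -0.42). S100a8, a neutrophil marker that keratinocytes also make, differed by -1.65 (adjusted p = 0.097). The leukocyte array means were 5.09 to 5.47 in cKO and 4.76 to 5.17 in WT tumours. Of 11 keratinocyte markers, 1 rose and 2 fell (1 of each after quantile normalization), with array means of 10.28 to 11.35 in cKO and 10.49 to 11.06 in WT tumours. The part that cell makeup has in the members' differences was not tested.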

How the data were processed

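The deposited file holds log2 expression per probe set for 13 arrays, which the authors made with RMA, as the submitters' processing notes name it. Not given in the sources used here are its version and whether values were adjusted afterwards. The SD over probe sets was 1.83 to 1.88 on cKO and 1.91 to 1.94 on WT arrays. Titles gave group and replicate number. The members and gene lists were chosen with earlier results of these data known. Of 45141 probe sets, 104 array controls were left out. The rest were fitted together with limma 3.58.1 in R 4.3.3 (lmFit, eBayes, no filter), with two-sided p-values adjusted over all 45037 by Benjamini-Hochberg. The second fit adds a term for each pair of neighbouring arrays, an arrangement read from the data and recorded in no label. Gene counts use the probe set of highest mean. The fits were also run on simulated data. Limits to be met were set there only for the fit without the pair term on independent arrays. Ranges over the arrays of each group are given for the 12 largest differences called in both fits, and every array is plotted for these. They are also given for genes called in opposite directions and for the first gene of a role group otherwise not named. Some other members have ranges too. Of other pathway genes, the 6 of smallest p called in both fits are named. Motifs were searched with Python 3.11.15, and figures drawn with matplotlib 3.10.9. The number of arrays limits the precision.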

Additional observations from a re-analysis of the deposited data

How the results depend on the processing

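Counts of calls moved most between fits. Of all probe sets, 21565 were called without the pair term, 12169 with it and 8955 with the replicate number as a block. Quantile normalization and the pair term together, an alternative chosen after seeing the data, gave 11295. With the block, only the replicate numbers found in both groups (2, 6, 8 and 9) bear on the difference, so it rests on 4 arrays per group. Member probe sets called numbered 41, and 20, 17 and 19 under the same 3 settings, and 23 at an adjusted p under 0.01. Member genes numbered 24, and 13, 9 and 12. Other pathway genes numbered 16, and 8, 7 and 6, and 10 at an adjusted p under 0.01. Leaving out each array in turn gave 19362 to 20914 probe sets, 31 to 42 member probe sets, 21 to 26 member genes and 15 to 19 other genes. Other normalizations, filters on dim probe sets and the trended robust prior kept these counts within 1.5 times. Counts of probe sets have no value where genes were fitted. Ehmt2 probe set 1 differed by 0.24 after quantile normalization (adjusted p = 0.0138), by 0.0745 to 0.1733 with an array left out, past the threshold without WT replicate 9 (adjusted p = 0.0466), and by -1.10 when averaged with probe set 2, which carries the difference. Mus81 changed sign with the block (0.0826), after quantile normalization without and with the pair term (0.068 each), and within -0.0692 to 0.0688 with an array left out. Of the 12 largest member differences, Rad51b probe set 1, Rad52 probe set 1 and Fancm lost their calls with the block (adjusted p = 0.0524, 0.145 and 0.107). Their differences on those fewer arrays were 1.0929, -0.3065 and 0.2602, against 0.9346, -0.4559 and 0.3189 on all 13. The part that the fewer arrays have in this was not tested. Whether the replicate numbers shared by the groups (2, 6, 8 and 9) pair the arrays is not given. Deviations of same-numbered arrays correlated at 0.05, -0.28, -0.13 and -0.06, and 0 of the 4 cKO arrays correlated best with its own number. Since deviations mirror each other within a group, and whether values were adjusted before deposit is not known, these correlations cannot settle it.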
